A study of Mus musculus with 6 samples.

Results

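The genes described here are those of interleukin-1 and the NLRP3 inflammasome, measured in pancreatic islets of wild-type mice and of mice with a human islet amyloid polypeptide (IAPP) transgene. They were chosen by gene symbol: all probe sets annotated to exactly 1 of Il1a, Il1b, Il1rn, Il1r1, Nlrp3, Pycard, Casp1, Il18, Tlr2 and Myd88. All 10 genes were found, with 15 probe sets, of 18193 genes with a symbol of their own on the array. The series holds 6 Affymetrix arrays, each of RNA from 1 mouse, of which 3 were wild type (numbered 1 to 3) and 3 were hIAPP_Tg (numbered 4 to 6). The transgene is driven by the Ins2 insulin promoter, which is active in beta cells, and both genotypes have FVB/N-Tg(Ins2-IAPP)RFHSoel/J as strain name. All mice were 12 weeks old at islet isolation and ate standard chow. Zygosity of the transgene, the sex of the mice and the hour of isolation are not given in these sources. Replicates were taken as separate mice from the sample titles.

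IAPP is secreted with insulin by beta cells, and its human form aggregates into amyloid where the mouse form does not. Aggregated human IAPP is known to act on macrophages in a pair of steps. Toll-like receptor 2 signals through the adaptor MyD88 to NF-kB and induces the precursor of interleukin-1 beta. NLRP3 then assembles with the adaptor ASC, encoded by Pycard, to activate caspase-1, which cleaves the precursors of interleukin-1 beta and interleukin-18 into active cytokines. Interleukin-1 acts on the receptor encoded by Il1r1, which mouse beta cells express strongly, and the antagonist encoded by Il1rn blocks that receptor. An array reads RNA only, so cleavage, assembly and secretion were not measured here.

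Of these genes, 2 separated the genotypes, in opposite directions, and neither passed correction over the whole array. By the brightest probe set of each gene, 7.7% of all 18193 genes separated them too, so this count is not far from the background. Il1r1 was lower in hIAPP_Tg islets by a log2 difference of -0.60 (SE 0.13, n = 3 each). Tlr2 was higher by 0.43 (SE 0.098). For Il1b, Il18, Nlrp3, Pycard and Myd88 the genotypes overlapped (ties count as overlap), with differences between -0.033 and 0.23, while Il1a, Il1rn and Casp1 lay at levels of genes not expected in islets. All values are log2 values from robust multi-array averaging (RMA), deposited in steps of 0.1, and differences are hIAPP_Tg minus wild type. In the neutrophil markers S100a8 and S100a9 and in the mean of acinar cell markers, hIAPP_Tg replicate 5 stood apart from the other arrays. Tests are two-sided limma tests with Benjamini-Hochberg adjustment over 45037 probe sets.

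The promoters of Tlr2 and Il1r1 are shown because these are the members whose genotypes did not overlap. Sequences are from RefSeq (GRCm38.p6), read on the strand of the gene from 250 bases before to 50 bases after an annotated start, and all 10 members matched the promoter table, with 14 windows. Capitals mark a match to an NF-kB-type motif, GGGANTTCC, searched on both strands. The Tlr2 window lies at chr3:83841559-83841858 on the minus strand. The Il1r1 windows, of an upstream and a downstream start, lie at chr1:40224830-40225129 and chr1:40266336-40266635 on the plus strand.
Tlr2: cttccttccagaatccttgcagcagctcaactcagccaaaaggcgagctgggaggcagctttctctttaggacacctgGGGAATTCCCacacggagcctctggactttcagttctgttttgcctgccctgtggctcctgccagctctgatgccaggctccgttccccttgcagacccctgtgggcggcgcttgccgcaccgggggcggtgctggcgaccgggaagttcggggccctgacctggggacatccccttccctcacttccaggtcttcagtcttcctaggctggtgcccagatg
Il1r1 upstream start: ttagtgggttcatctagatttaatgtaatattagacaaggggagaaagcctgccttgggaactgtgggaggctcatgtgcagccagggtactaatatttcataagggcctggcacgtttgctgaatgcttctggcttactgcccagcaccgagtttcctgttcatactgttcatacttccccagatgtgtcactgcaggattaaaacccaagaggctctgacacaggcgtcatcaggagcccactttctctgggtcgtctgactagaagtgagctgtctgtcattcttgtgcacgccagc
Il1r1 downstream start: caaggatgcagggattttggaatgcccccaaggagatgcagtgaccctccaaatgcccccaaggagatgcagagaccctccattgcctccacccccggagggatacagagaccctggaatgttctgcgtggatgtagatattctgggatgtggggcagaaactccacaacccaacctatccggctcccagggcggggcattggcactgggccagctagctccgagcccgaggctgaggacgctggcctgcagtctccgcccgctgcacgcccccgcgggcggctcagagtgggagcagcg

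The capitals of the Tlr2 window hold overlapping matches on the 2 strands, the first of which begins at -172 from the start site. Of the 14 member windows this is the single one with the motif, which occurs in 1.68% of the 32851 windows in the table. Only this form of the NF-kB motif was searched, so a window without a match may hold another form. The core of PU.1, a myeloid transcription factor, was searched as GAGGAA on both strands and is in 4 member windows, 1 each of Casp1, Il1a, Nlrp3 and Pycard, against 28.3% of all windows. An AP-1-type motif, TGANTCA, is in 2, those of Il1a and Il1rn, against 7.81%. A match describes letters and was not tested for binding. Neither Il1r1 window holds any of the 3 motifs. The probe sets of the array do not tell which Il1r1 start was used.

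Whether a member was expressed at all was judged against 80 probe sets of olfactory and vomeronasal receptor genes, which are not expected in islets. Their median level was 4.09, and their 95th percentile, 5.9, is called the floor below. Of the 15 member probe sets, 8 lay at or under the floor and 7 above it, so 7 genes had a probe set above the floor and Il1a, Il1rn and Casp1 had none. Nlrp3, at a mean of 6.02 over all arrays, exceeded the floor by 0.12 only, and the highest receptor probe set stood at 6.75. RMA compresses differences near the floor, so a difference there could be larger in RNA than it reads.

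**Figure D1:**
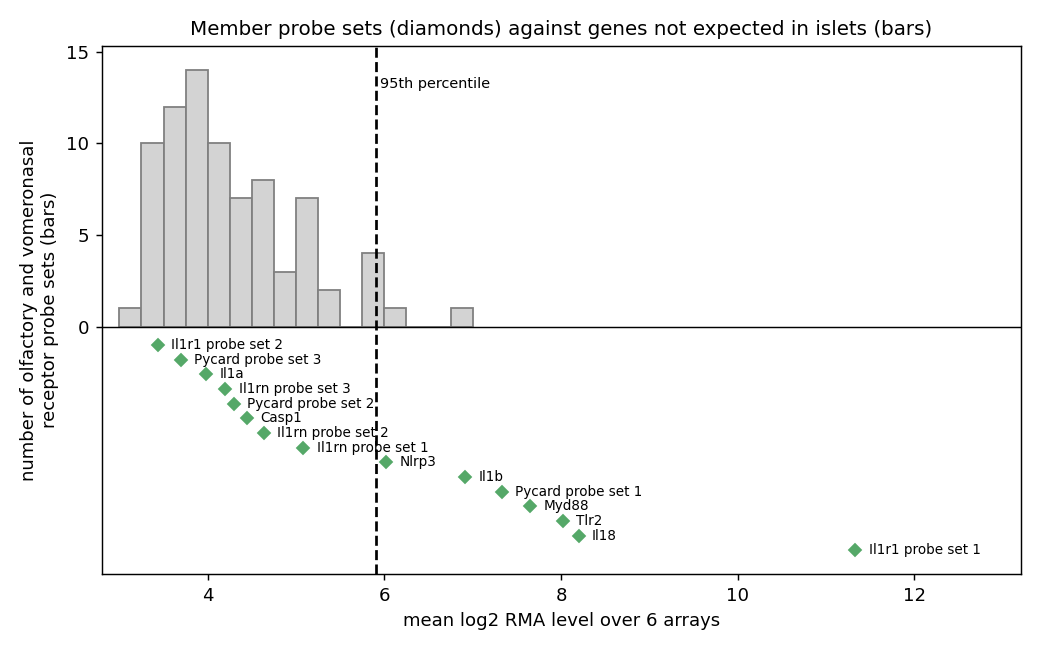
Mean log2 RMA level over 6 arrays of the 15 member probe sets (diamonds, named) below a histogram of 80 olfactory and vomeronasal receptor probe sets (bars, number of probe sets). The dashed line is their 95th percentile, 5.9; 8 member probe sets lie to its left, Nlrp3 just to its right, and the brightest Il1r1 probe set far above.

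Il1r1 encodes the receptor through which both interleukin-1 alpha and beta signal. Its brightest probe set read 11.6, 11.6 and 11.7 in wild-type islets and 10.8, 11.3 and 11 in hIAPP_Tg islets. Every hIAPP_Tg array was below every wild-type array, and the hIAPP_Tg arrays spread more widely (11.03 ± 0.25 against 11.63 ± 0.058, SD, n = 3 each). The difference of -0.60 had a 95% interval of -0.91 to -0.29, corresponding to 0.66 of the wild-type level, with an unadjusted p of 0.00312 and a limma adjusted p of 0.431. In size it stood at percentile 99.3 of all probe sets tested. The second Il1r1 probe set lay far under the floor, at 3.4 on each wild-type array and 3.5, 3.5 and 3.4 on the hIAPP_Tg arrays, and differed by 0.067. Averaged over both probe sets, the difference was -0.27.

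Markers of cells that could carry Il1r1 were read beside it. Of 10 endothelial markers, 4 were lower at an unadjusted p under 0.05 (background 3.45%) and 0 higher. Of the 4, Tek differed by -0.33 and Egfl7 by -0.30 without overlap, and Emcn by -0.37 and Pecam1 by -0.27 with overlap. Of those not called, Kdr, Plvap and Esam differed by 0, Flt1 by 0.27, Cdh5 by -0.13 and Tie1 by 0.033. The mean level of the list was 8.04 to 8.11 in wild-type against 7.91 to 8.01 in hIAPP_Tg islets. All 8 measured beta cell markers lay above the floor, and 0 of 8 were called at that p, with means of 12.9 to 13 and 12.7 to 12.9. Of the 8, 5 differed below 0, most of all Slc2a2 (-0.37), 2 above 0 and 1 by 0. Ins2 read 15.1 on every array, the highest value measured, where a difference may not show. Of 5 measured genes of the other hormone cells, 2, Hhex (-0.33) and Irx2 (-0.23), were lower at that p without overlap, and Gcg, Sst and Ppy were not called. Of 8 stromal markers, 6 differed below 0 and 2 above 0, with a median of -0.27. At that p, 1 of them was lower, Lum (-0.5, with overlap), and 1 higher, Pdgfrb (0.43, without overlap). The stromal mean was highest on wild_type replicate 1, at 9.22. The defining endothelial marker Pecam1 read 5.70 and 5.43 as group means, under the floor, while Kdr read 9.73 in both. In whole islets, fewer cells of a type and less RNA per cell cannot be told apart, and the part of these cells in the Il1r1 value was not tested.

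The genes whose values ran most like those of Il1r1 over the 6 arrays were Smoc2 and Ankrd33b (Pearson's r = 0.983 each), Tfpi2 (0.969), Dcdc2a (0.962) and Daam1 (0.958). They were sought among 5679 named probe sets that varied between arrays, of which 40 had r above 0.9, and much of each r is the step between genotypes. Smoc2 and Tfpi2, at 4.2 to 4.8, lay under the floor on every array. Ankrd33b, for example, read 7.2, 7.3 and 7.3 in wild-type against 6.7, 7.0 and 6.9 in hIAPP_Tg islets. Like Il1r1, it was lowest on hIAPP_Tg replicate 4. None of the 5 passed the threshold (limma adjusted p of 0.269 to 0.565).

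Tlr2, the receptor of the first step, read 7.9, 7.8 and 7.7 in wild-type islets and 8.1, 8.4 and 8.2 in hIAPP_Tg islets. All hIAPP_Tg arrays were above all wild-type arrays (8.23 ± 0.15 against 7.80 ± 0.10, SD, n = 3 each). The difference of 0.43 had a 95% interval of 0.20 to 0.67, which is 1.35-fold, with an unadjusted p of 0.00399 and a limma adjusted p of 0.449. It stood at percentile 98.3 of all probe sets by size. Myd88, the adaptor that Tlr2 and the interleukin-1 receptor share, read 7.7, 7.7 and 7.6 against 7.6, 7.6 and 7.7. The genotypes overlapped, and its interval of -0.19 to 0.12 covers 0.

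Among the cytokines, Il1b read 6.6, 7.0 and 6.8 in wild-type against 6.8, 7.0 and 7.3 in hIAPP_Tg islets. The lower hIAPP_Tg arrays lay within the wild-type range and replicate 6 above it. The difference of 0.23 was about the spread between mice (SD 0.20 and 0.25), with an interval of -0.15 to 0.61 and a limma adjusted p of 0.731. Without hIAPP_Tg replicate 6 the difference was 0.10 and without wild_type replicate 1 it was 0.13. Il18, which epithelial cells also make, read 7.8, 8.2 and 8.3 against 8.3, 8.4 and 8.2. Here wild_type replicate 1 stood low and the other arrays were close together. The Il18 difference was 0.20 (interval -0.14 to 0.54, limma adjusted p = 0.756), and without wild_type replicate 1 it was 0.05.

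Il1a read 3.8, 4.1 and 4.0 in wild-type islets and 4.0 on each hIAPP_Tg array, under the floor on every array. The receptor antagonist gene Il1rn had 3 probe sets, all under the floor. The brightest read 5.1, 5.0 and 4.9 against 5.3, 5.1 and 5.1, so that the genotypes met at 5.1. The differences of its probe sets were 0.17, -0.067 and 0.13, and the smallest limma adjusted p among them was 0.632. For these 2 genes the arrays do not show whether RNA was present.

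The core of the inflammasome showed no separation between genotypes, though of its genes Pycard alone lay clearly above the floor. Nlrp3, the sensor, read 6.0 on every wild-type array and 6.0, 6.1 and 6.0 on the hIAPP_Tg arrays. Its difference of 0.033 is under 1 step of the rounding, and its interval was -0.10 to 0.17. Lying above the floor by 0.12 only, Nlrp3 could differ more in RNA than this reads. Pycard, the adaptor, read 7.4, 7.2 and 7.3 against 7.3, 7.5 and 7.3 on its brightest probe set (difference 0.067, interval -0.14 to 0.28). Its other 2 probe sets lay under the floor and differed by 0 and -0.067. Casp1, the protease, read 4.4, 4.5 and 4.4 against 4.7, 4.4 and 4.3. All 6 values were under the floor, and hIAPP_Tg replicate 4 was the highest of them.

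**Figure D2:**
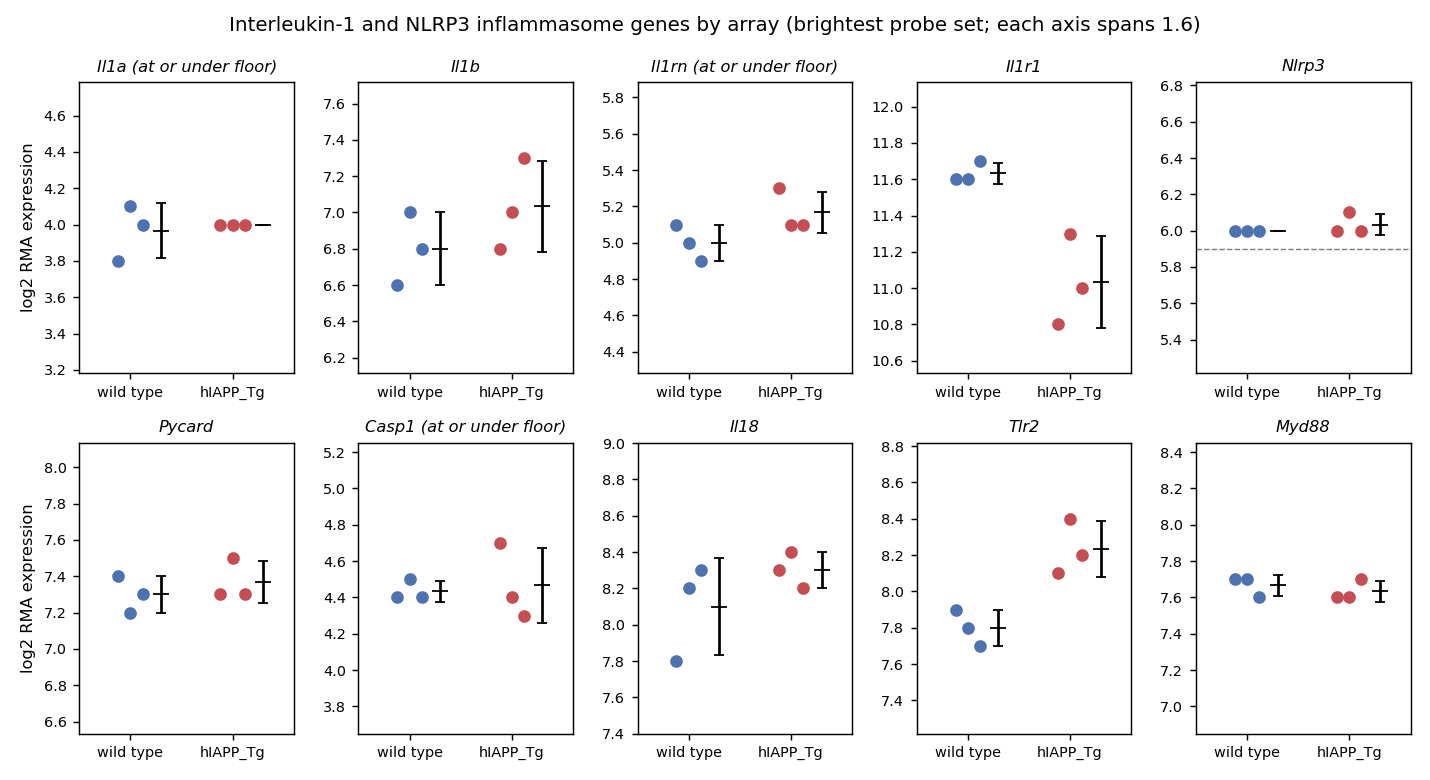
Log2 RMA expression (vertical axis, each spanning 1.6) of the brightest probe set of the 10 members on the 3 wild-type (blue) and 3 hIAPP_Tg (red) arrays, with mean and SD in black and the floor dashed where it falls in the panel. Il1r1 and Tlr2 are the panels in which the genotypes do not overlap.

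Across the members, 0 of 15 probe sets passed the limma test at an adjusted p of 0.05, where 13 of all 45037 (0.0289%) did. At an unadjusted p under 0.05, 2 of the 15 were called, beside 7.33% of all probe sets. Counted by the brightest probe set of each gene, 2 of 10 members were called beside 8.48% of all genes. There was 1 in each direction (background 5.02% higher and 3.45% lower), and for the same 2 the genotypes did not overlap, beside 7.7%. With 10 genes, 2 calls are not far from that background. The median difference over the 10 members was 0.05 and that over all genes 0.

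**Figure D3:**
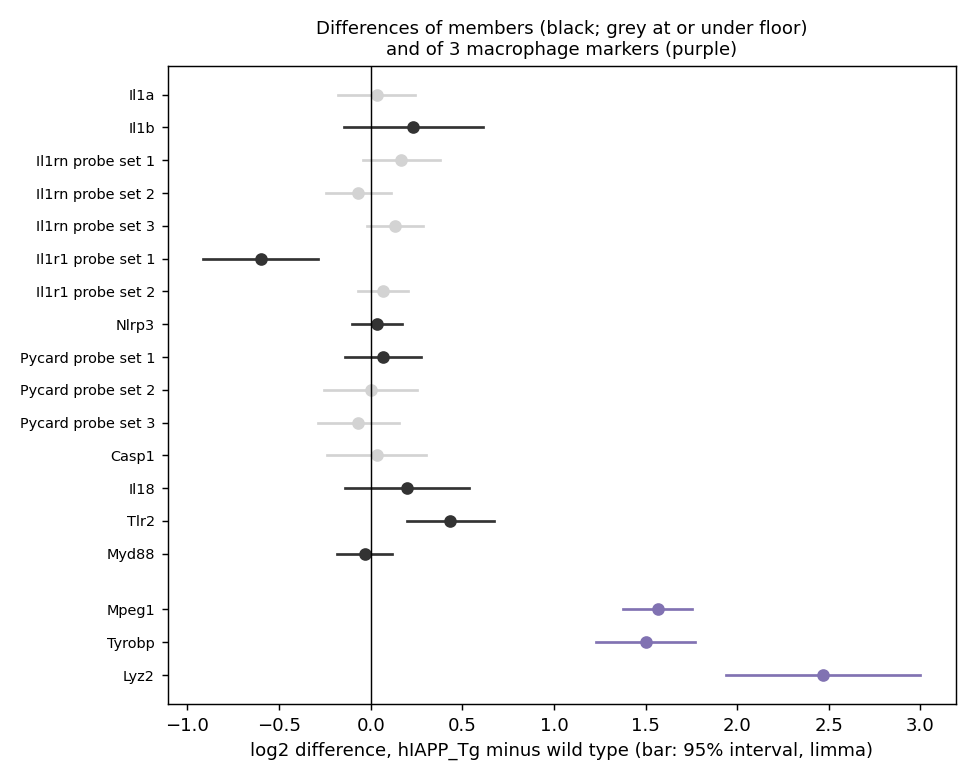
Log2 difference (hIAPP_Tg minus wild type, horizontal axis) with its 95% limma interval for the 15 member probe sets (black above the floor, grey at or under it) and the 3 macrophage markers of smallest p (purple). The intervals of Il1r1 probe set 1 and of Tlr2 leave out 0, and all member values are smaller than the 1.5 to 2.47 of these 3 markers.

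Markers of macrophages, in which this pathway is best known, were mostly higher in hIAPP_Tg islets. Of 20 macrophage markers, 16 were higher at an unadjusted p under 0.05 (background 5.02% of genes in that direction) and 0 lower, with a median difference of 0.90. Their mean level was 6.84 to 6.95 in wild-type against 7.74 to 7.89 in hIAPP_Tg islets. Mpeg1, a pore-forming protein of macrophages, differed by 1.57 (limma adjusted p = 0.00683), the receptor adaptor gene Tyrobp by 1.5 (limma adjusted p = 0.0271) and the lysozyme gene Lyz2 by 2.47 (limma adjusted p = 0.0555). With single arrays left out their differences stayed at 1.53 to 1.63 for Mpeg1 and 1.42 to 1.62 for Tyrobp. The smaller fits ended the call of Tyrobp each time and that of Mpeg1 each time but without hIAPP_Tg replicate 5, at adjusted p of up to 0.681. With the acinar marker mean of each array as a covariate the differences were 1.62 and 1.57, at adjusted p of 0.0517 and 0.174. The marker list had 17 members above the floor, and Itgam, Fcgr1 and Mrc1, none of them called, were under it. Fcer1g was not called either, though above the floor at 8.33 and 8.30 as group means (difference -0.033). The 3 markers detailed above are those with the smallest p of the list. That markers of this list differ was known when they were set beside the pathway. Their part in the Tlr2 difference was not tested.

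Markers of other leukocytes and of exocrine cells were set beside the members too. All 10 measured neutrophil markers had means at or under the floor, and 1, Csf3r, was higher at an unadjusted p under 0.05. On hIAPP_Tg replicate 5, however, S100a8 read 6.3 and S100a9 6.1, above the floor, where the other arrays read 4.3 to 4.6. The other neutrophil markers did not follow to that extent. Csf3r (5.5) and Ngp (5.9) were slightly highest on replicate 5, and Cxcr2 (4.6) and Mmp8 (4.2) lowest. The rest of the neutrophil list lay within the range of the other arrays. The same array was the highest for Tlr2 (8.4), Cxcl2 (5.8) and Il6 (4.4) and the lowest for the acinar marker mean. Without it, Tlr2 differed by 0.35 and Il1r1 by -0.73. The part of neutrophils in these values was not tested. Of 10 measured lymphocyte markers, 3 lay above the floor and 0 were called. The acinar marker mean varied between mice, at 10.5 to 11.9 in wild-type and 9.27 to 11.4 in hIAPP_Tg islets, with 9 of 10 markers below 0, 8 of them by 0.5 or more in size, a median of -0.98 and 0 of 10 called. With that mean as a covariate the difference was -0.73 for Il1r1 and 0.31 for Tlr2. Of 6 measured duct markers, 2 lay above the floor, 3 differed below 0 and 1 above 0, with a median of -0.067. The 1 above 0, Krt7 (0.33, without overlap), was the only duct marker called at an unadjusted p under 0.05. The brightest mouse Iapp probe set read 14.93 in wild-type and 14.97 in hIAPP_Tg islets as group means. The others read 13.33 and 13.33, 12.33 and 12.27, and 10.7 and 10.67. Mouse probe sets need not bind the human transcript, so these values do not check the genotype labels.

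The wider pathway was read from 4 lists, with 89 of 104 genes measured and 49 above the floor. At an unadjusted p under 0.05, 6 genes were higher and 2 lower, 8.99% of the 89 beside 8.48% of all genes, and 0 passed the adjusted threshold. The median difference over the 89 was 0.033. Of the 89, 2 (Cxcl2 and Socs3) differed by 0.5 or more in size, as did 1.57% of all genes. This share is close to the background.

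Other ligands and receptors of the interleukin-1 family numbered 11 measured genes, 6 of them above the floor, with 0 called and a median of -0.033. Il1r2, the decoy receptor that binds interleukin-1 without signalling, read 7.7, 7.6 and 7.5 in wild-type and 8.2, 7.3 and 7.9 in hIAPP_Tg islets. The hIAPP_Tg arrays lay on both sides of the wild-type ones. The co-receptor gene Il1rap differed by -0.17 (limma adjusted p = 0.683) and Il18bp, which encodes the binding protein that neutralises interleukin-18, by 0.17 (limma adjusted p = 0.711). These 3 were chosen after their values were seen, for their roles.

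Of 19 inflammasome and pyroptosis genes, 10 were above the floor, 2 were higher and 1 was lower at an unadjusted p under 0.05, and the median was 0.067. Naip2, a sensor of bacterial proteins for another inflammasome, read 7.8 on each wild-type array and 8.1, 8.1 and 8.0 on the hIAPP_Tg arrays (difference 0.27, limma adjusted p = 0.419). P2rx7, the ATP-gated channel that triggers NLRP3, read 5.9, 5.8 and 5.9 against 6.0, 6.3 and 6.4 (difference 0.37, limma adjusted p = 0.552). Its wild-type level was at the floor, and its other 2 probe sets, under the floor, differed by 0.13 and -0.033. The unadjusted call of P2rx7 was lost without wild_type replicate 2 (0.33), hIAPP_Tg replicate 5 (0.33) or hIAPP_Tg replicate 6 (0.28). The lower gene, Casp4, a caspase that senses bacterial lipopolysaccharide, was under the floor at -0.33 and its genotypes overlapped. Gsdmd, which forms the pore of pyroptosis, differed by 0.10 (limma adjusted p = 0.720), and Txnip, a glucose-induced NLRP3 partner, by 0.20 (limma adjusted p = 0.845).

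Of 29 genes of Toll-like and interleukin-1 receptor signalling, 20 were above the floor, 3 were higher and 0 lower at that p, and the median was 0. Tlr9, an endosomal DNA sensor, read 6.7, 6.5 and 6.5 against 6.8, 7.0 and 6.8 (difference 0.30, limma adjusted p = 0.552). Tlr7, an endosomal RNA sensor, differed by 0.20 under the floor. Irak1, the kinase recruited by MyD88, differed by 0.17 on the brightest of its probe sets and by 0.13, -0.10 and -0.067 on the others. The unadjusted call of Tlr9 was lost without wild_type replicate 2 or 3 (0.27 each) and that of Irak1 without wild_type replicate 2 or hIAPP_Tg replicate 4 (0.13 each). The lipopolysaccharide receptor genes Tlr4 and Cd14 differed by -0.10 and 0.067, and the genotypes overlapped for both.

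Of 30 NF-kB and interleukin-1 target genes, 13 were above the floor, 1 was higher and 1 lower at that p, and the median was 0.05. The lower gene was the chemokine gene Ccl5, at 5.9, 5.9 and 6.1 against 5.8, 5.5 and 5.7, near or under the floor (difference -0.30, limma adjusted p = 0.557). Its unadjusted call was lost without wild_type replicate 3 (-0.23), hIAPP_Tg replicate 5 (-0.22) or hIAPP_Tg replicate 6 (-0.32). The higher one was Socs3, a feedback inhibitor of cytokine signalling, at 8.3, 8.7 and 8.2 against 8.7, 8.8 and 9.4, where replicate 6 stood highest and the genotypes met at 8.7 (difference 0.57, limma adjusted p = 0.620). The neutrophil-attracting chemokine gene Cxcl2 differed by 0.60 from under the floor, with overlap (limma adjusted p = 0.632). Tnf differed by 0.13, Il6, under the floor, by 0.17 and the NF-kB inhibitor and target Nfkbia by 0.23, and none was called.

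**Figure D4:**
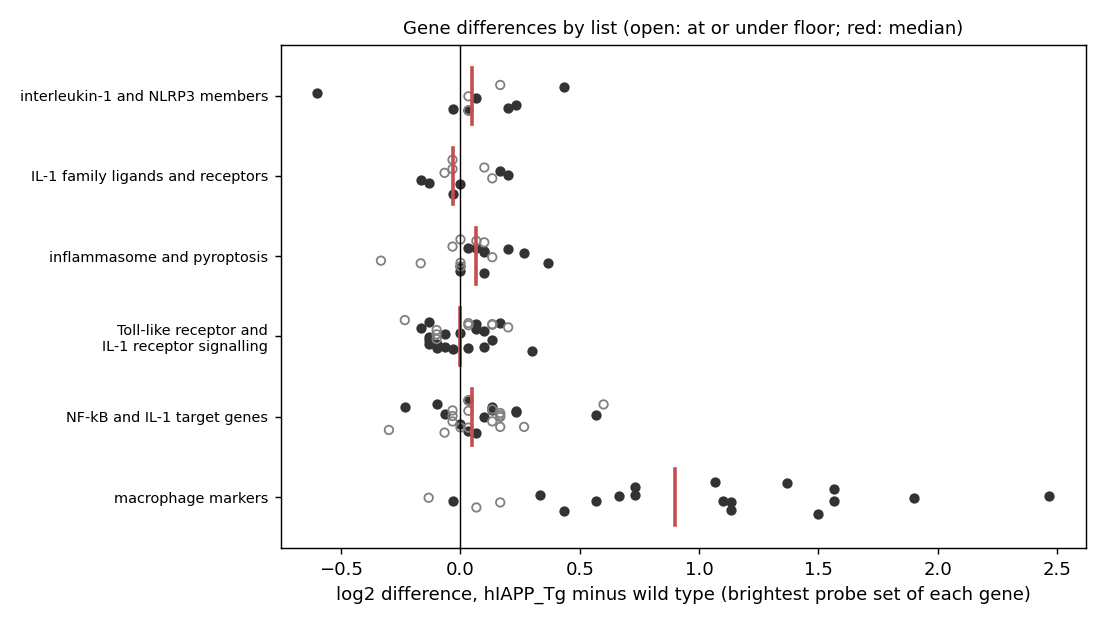
Log2 difference (hIAPP_Tg minus wild type, horizontal axis) of each gene's brightest probe set, for the members, 4 pathway lists and the macrophage markers (rows), with filled points above the floor, open points at or under it and the median in red. The medians of the members and of the pathway lists lie between -0.033 and 0.067, and that of the macrophage markers at 0.90.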

How the data were processed

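Islet RNA of 6 mice was labelled with biotin and hybridised to Affymetrix mouse arrays, 1 array per mouse. The authors deposited log2 expression values, normalized with RMA in affy per the submitters' processing notes, with versions not given in the sources used here. Quantile steps of RMA set all arrays to nearly 1 distribution, so a shift of most genes would not show. The table was rounded to steps of 0.1. Of its 45101 probe sets, 64 controls were left out. Names came from the platform annotation, and a gene's brightest probe set over all arrays stood for it in lists. An array has no read depth; the number of arrays limits the precision.

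Differences were tested with limma 3.58.1 in R 4.3.3 (lmFit, eBayes, no covariate, 3 against 3), Benjamini-Hochberg adjusted. The code was tested on simulated data. Every probe set of the members was named, with up to 3 non-overlapping genes per direction and pathway list by smallest p, the 5 genes most like the leading member and 3 macrophage markers. Further genes were chosen after their values were seen. Members and lists were chosen with earlier results of these data known. Alternatives were other normalizations, filters, priors and weights, averaged probe sets and single arrays left out. The acinar covariate was added after seeing the data. Figures were drawn with matplotlib 3.10.9.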

Additional observations from a re-analysis of the deposited data

How the results depend on the processing

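Under 15 alternatives, Il1r1 stayed lower (-0.73 to -0.27) and Tlr2 higher (0.31 to 0.50), both at an unadjusted p under 0.05 each time, and the smallest limma adjusted p were 0.24 and 0.243. No member and no gene of the 4 pathway lists passed the adjusted threshold under any of them. The number of members at an unadjusted p under 0.05 was 2 throughout, except 3 with array quality weights. The number of pathway genes at that p, 8, was 5 with probe sets at or under the floor filtered out, where fewer genes were tested, and 14 with array quality weights. With single arrays left out it ran from 6 (without wild_type replicate 3) to 12 (without wild_type replicate 1). The share of all genes at that p was computed for the main fit only. These counts under the alternatives, of members and of pathway genes, therefore have no background to be read against. Of all probe sets, 13 passed, against 30 with quantile normalization, 51 with a robust prior, 26 with array weights, 3 with the acinar covariate, and 1 to 4 without single arrays (1 without wild_type replicate 1, 2 or 3, 2 without hIAPP_Tg replicate 4, and 4 without hIAPP_Tg replicate 5 or 6), where fewer samples were tested. Signs turned only for members close to 0: Pycard was at -0.022 with the acinar covariate, Myd88 at 0.0079 with array weights, and without single arrays Il1a ran from -0.05 to 0.10 and Casp1 from -0.083 to 0.12. Of the macrophage markers named, Lyz2 passed under 7 alternatives. Away from single arrays, the unadjusted call of P2rx7 was also lost with averaged probe sets (0.16) and the acinar covariate (0.28), that of Irak1 with quantile normalization (0.11), a robust prior (0.17), averaged probe sets (0.033) and the acinar covariate (0.19), that of Tlr7 with averaged probe sets (0.056), and that of Ccl5 with the acinar covariate (-0.18). The Il18 difference was 0.087 with array weights. The causes of the other changes were not tested. No paired analysis was possible because the genotypes share no replicate number. With 3 mice a genotype, a difference of Il1b of up to 0.61 is within its interval, and under the floor the arrays bound nothing.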
